A study of Mus musculus with 20 samples.

Results

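Glycolysis is represented here by the introns of 10 mouse genes, chosen by symbol: Gpi1, Pfkl, Aldoa, Tpi1, Gapdh, Pgk1, Pgam1, Eno1, Pkm and Ldha. They were 10 of the 8397 genes in the deposited splicing table and supplied 91 of its 68794 introns. At least 10 reads were present for 68 of these introns in untreated cells and for 49 in treated cells, and 42 introns of 8 genes reached that depth in both. A second deposited table, on splicing intermediates, held 62 of the introns in untreated cells and 28 in treated cells, with no intron of Gapdh or Pfkl.

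The cells were MEL cells, a murine erythroleukemia line, wild type in genotype in both groups. Uninduced cells had no treatment, and induced cells were kept in 2% DMSO for 5 days, which starts red cell maturation in this line. Each group consisted of 4 long-read libraries, made from 2 biological replicates on 2 instruments, of chromatin-bound RNA depleted of polyadenylated and ribosomal RNA. The tables give 1 line per intron and group, so every value below is taken to belong to a pool of a group's libraries. Which runs were added together, and how the unspliced reads, on which every coSE rests, were merged, is not given in the sources used here. Replicate spread is unknown, and each test compares 2 pools.

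The uninduced pool held 416379 intron observations, in which 1 long read counts at every intron it spans, and the induced pool held 279371. Globin genes took 0.0989% of the observations before and 1.51% after induction. Of 12 erythroid marker genes, 10 had reads before and 12 after induction, with 1708 and 13074 observations in all. Slc4a1 and Epb42 were at 0 in the uninduced pool. Of 8 markers of other blood cells, only Ptprc and Cd68 were in the table, with 97 observations before and 0 after induction. Fewer nascent molecules per cell and a change in the mix of cells cannot be told apart in such pools.

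Glycolysis breaks glucose down to pyruvate and yields ATP and NADH without oxygen. Its upper steps, run by glucose-6-phosphate isomerase, phosphofructokinase, aldolase and triosephosphate isomerase, turn glucose phosphate into a pair of triose phosphates. Its lower steps, run by GAPDH, phosphoglycerate kinase, phosphoglycerate mutase, enolase and pyruvate kinase, recover the energy as ATP, and lactate dehydrogenase regenerates the NAD+ they consume. Mature red cells have no mitochondria and live on this pathway alone. The genes are short to moderate in length and highly transcribed in growing cells. In most genes the spliceosome removes introns while RNA polymerase is still transcribing, and the fraction of nascent reads already spliced at an intron is called its co-transcriptional splicing efficiency (coSE).

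The splice sites of 8 introns on which the results turn are printed first. They are the introns of Aldoa, Tpi1, Eno1 and Pkm whose coSE fell after induction, together with introns 7 and 8 of Pkm, which had most of that gene's splicing intermediates. Each 5′ splice site is given as 9 bases, 3 of the exon and the first 6 of the intron. Each 3′ splice site is given as 23 bases, the last 20 of the intron and 3 of the next exon. Capitals mark the first and the last pair of intron bases, and the letters are those of the authors' deposited table, read 5′ to 3′ on the gene's strand.
Aldoa intron 6, 5′ splice site: aagGTaggt
Aldoa intron 6, 3′ splice site: ctttccctgctgtgttccAGgtc
Tpi1 intron 4, 5′ splice site: cagGTatct
Tpi1 intron 4, 3′ splice site: ctctcctctctgccccacAGata
Tpi1 intron 5, 5′ splice site: cagGTaact
Tpi1 intron 5, 3′ splice site: gctctgcctcctccttctAGgca
Tpi1 intron 6, 5′ splice site: gagGTgagt
Tpi1 intron 6, 3′ splice site: tcttcttgttcctggtacAGgtt
Eno1 intron 4, 5′ splice site: aagGTagga
Eno1 intron 4, 3′ splice site: ctcacttcctgtccctgcAGaaa
Pkm intron 1, 5′ splice site: gagGTgagc
Pkm intron 1, 3′ splice site: ttcaaatctccgggacccAGgac
Pkm intron 7, 5′ splice site: cagGCatgt
Pkm intron 7, 3′ splice site: ccttgtctgtcccctcctAGatg
Pkm intron 8, 5′ splice site: ctgGTaagt
Pkm intron 8, 3′ splice site: gacggatgttgctcccctAGatt

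The introns whose coSE fell have no unusual end bases: each begins with GT and ends with AG. Their deposited 5′ splice site scores ran from 7.33 (Tpi1 intron 4) to 10.29 (Aldoa intron 6), beside a median of 8.78 over all 6537 introns of that table. Their 3′ scores ran from 8.90 (Tpi1 intron 6) to 12.19 (Eno1 intron 4), beside a median of 8.70, except in Pkm intron 1, where the score was 2.67. Pkm intron 7 is the exception among the 62 glycolytic introns of the table, since it begins with GC. GC starts were found in 43 of the 6537 introns (0.658%) and GT starts in 98.6%.

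In uninduced cells, most of the glycolytic introns were spliced in nearly all nascent reads, and Gapdh was the exception. Over the 68 introns with at least 10 reads, coSE had a median of 0.973 and a mean of 0.911, beside 0.933 and 0.855 over all 9982 introns at that depth. No unspliced read was counted at 18 of the 68 (26.5%), beside 37.0% of all introns, at median depths of 70 and 16 reads. Without Gapdh the mean of the other 64 was 0.962 and the lowest value was 0.6, in Pgam1. By gene mean the order in uninduced cells was Pgk1 (0.994), Ldha (0.985), Gpi1 (0.974), Pkm (0.970), Eno1 (0.964), Aldoa (0.933) and Tpi1 (0.932), and the ranges of their introns overlap from each to the next. Gapdh (0.0966) lay below them all, and Pfkl and Pgam1 had 1 intron each at this depth, at 1 and 0.6. Pools and genes are shown intron by intron in the plot of coSE by gene.

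**Figure D1:**
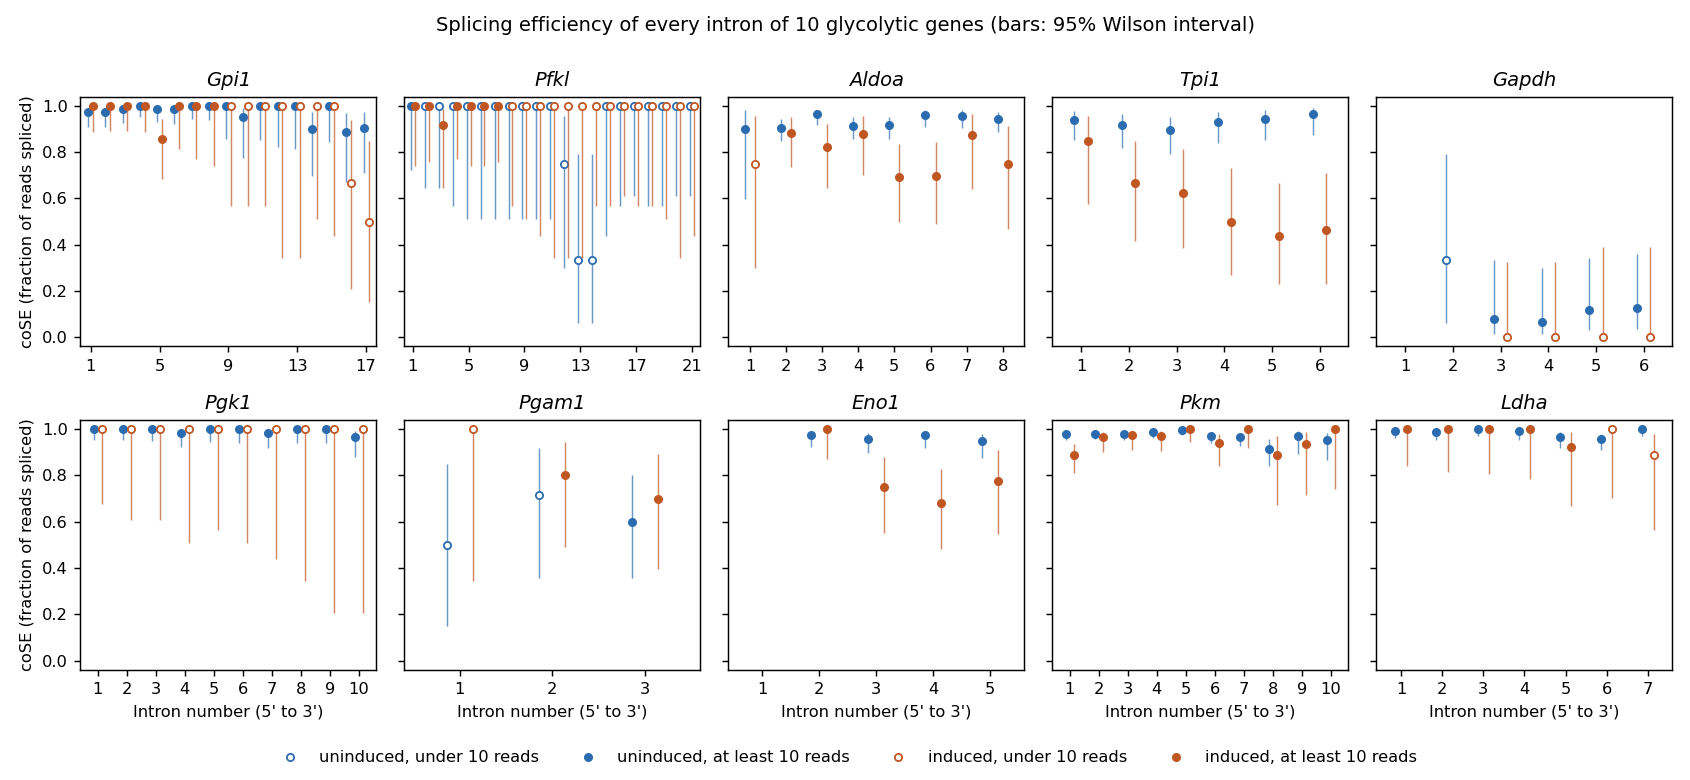
coSE of each glycolytic intron in the uninduced (blue) and the induced pool (orange), by gene in the order of the pathway; x axis, intron number; y axis, coSE; filled points, at least 10 reads; open points, fewer; bars, 95% Wilson interval of counting error. Among filled points Gapdh lies between 0.0667 and 0.125 in the uninduced pool, and Tpi1 separates most between the pools. Gapdh intron 2, with 1 of 3 reads spliced, is an open point at 0.333 in the uninduced pool.

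Among the upper-step enzymes, Gpi1, glucose-6-phosphate isomerase, lies on chr7:34201330-34230336 (minus strand, GRCm38) with 17 introns. All of them had at least 10 reads in the uninduced pool, and 8 had only spliced reads. The deepest of these 8 was intron 4 (chr7:34220927-34227117), with 78 of 78 reads spliced and a 95% Wilson interval of 0.953 to 1. The lowest was intron 16 (chr7:34202704-34202814), with 16 of 18 reads spliced (0.889, interval 0.672 to 0.969). Splicing was thus high along the whole gene, and the last 2 introns were among its lowest. Introns 1 to 4 overlap Gm26762 on the opposite strand, and whether the counting used strand is not given in the sources used here.

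Pfkl, the liver-type phosphofructokinase at the committed step, lies on chr10:77986947-78010083 with 21 introns, of which 1 reached 10 reads in the uninduced pool. That was intron 1 (chr10:78005515-78009598), with 10 of 10 reads spliced and 11 of 11 in the induced pool. In the induced pool 7 introns reached that depth, with a mean coSE of 0.988, and the lowest was intron 3 (chr10:78001501-78002009) with 11 of 12 reads spliced (0.917, interval 0.646 to 0.985). Over all its introns 98 of 103 observations were spliced before and 134 of 135 after induction, so no loss of splicing was detectable at this depth.

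Aldoa, the aldolase that splits fructose bisphosphate, lies on chr7:126795234-126800751 with 8 introns, 6 of which are under 300 nucleotides. Its uninduced coSE ran from 0.9 to 0.963 with a mean of 0.933. The highest was intron 3 (chr7:126796909-126797336), with 131 of 136 reads spliced (0.963, interval 0.917 to 0.984). The lowest was intron 1, in the 5′ UTR (chr7:126797777-126800287), with 9 of 10 reads spliced (0.9, interval 0.596 to 0.982). That intron overlaps Fam57b on the opposite strand, and the other 7 overlap no other gene.

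Tpi1, triosephosphate isomerase, which interconverts the triose phosphates, lies on chr6:124810586-124814296 with 6 introns of 84 to 1094 nucleotides. Uninduced coSE lay between 0.897 and 0.963. The lowest was intron 3 (chr6:124812537-124812620), with 52 of 58 reads spliced (interval 0.792 to 0.952), and the highest was intron 6, given below. These intervals overlap, so the introns of Tpi1 could not be ordered in uninduced cells.

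Among the lower-step enzymes, Gapdh, glyceraldehyde-3-phosphate dehydrogenase, stood apart. It lies on chr6:125161715-125166467 with 6 introns, of which introns 2 to 6 were in the table. In the uninduced pool 1 of 13 reads was spliced at intron 3 (chr6:125163041-125163138), 1 of 15 at intron 4 (chr6:125162709-125162842), 2 of 17 at intron 5 (chr6:125162394-125162477) and 2 of 16 at intron 6 (chr6:125162102-125162211). The coSE values were 0.0769, 0.0667, 0.118 and 0.125, and no upper bound of their 95% Wilson intervals exceeded 0.360. These were the only glycolytic introns below 0.2, a level found in 212 of all 9982 introns (2.12%).

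In the induced pool none of the 28 Gapdh observations was spliced, namely 0 of 8 at introns 3 and 4 and 0 of 6 at introns 5 and 6. At 8 reads, 0 allows a spliced share of up to 37.5%, so no difference between the pools was detectable. No Gapdh intron entered the test of change. Only 12.8 observations per intron were counted at Gapdh in the uninduced pool, below those of Pkm, Ldha, Aldoa, Eno1, Pgk1, Tpi1 and Gpi1. Gapdh has many processed pseudogene copies in the mouse genome, and how reads that match several places were counted is not given in the sources used here. Introns 3 to 6 are in 6 of 8, 4 of 5, 4 of 6 and 5 of 6 of the annotated transcripts that span them. Among all introns present in every spanning transcript, with at least 10 reads in the uninduced pool, 0.632% were below 0.2. The values of Gapdh are uncertain for these reasons.

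Pgk1, phosphoglycerate kinase, which makes the first ATP of the lower steps, lies on chrX:106187100-106203699 with 10 introns. It had the highest gene mean of coSE among genes with more than 1 intron at depth, 0.994, and 7 introns with only spliced reads. The deepest of these were introns 1 (chrX:106187316-106192006) and 2 (chrX:106192058-106194355), each with 76 of 76 reads spliced (interval 0.952 to 1). The lowest was the last, intron 10 (chrX:106202936-106203238), with 55 of 57 (0.965, interval 0.881 to 0.990). In the induced pool all 40 observations were spliced, with at most 8 reads at an intron, so no intron was tested.

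Pgam1, the mutase that moves the phosphate between carbons, lies on chr19:41911923-41918660 and had few reads. Intron 3 (chr19:41916824-41917605), the last, had 9 of 15 reads spliced in the uninduced pool (0.6, interval 0.357 to 0.802) and 7 of 10 in the induced pool (0.7, interval 0.397 to 0.892). The intervals overlap almost wholly. Intron 2 (chr19:41915880-41916642) had 5 of 7 and 8 of 10 reads spliced.

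Eno1, enolase, which forms phosphoenolpyruvate, lies on chr4:150236721-150248879. The transcript used in the tables, Eno1-210, has 5 annotated introns, of which introns 2 to 5 were in the table, so the rest of the gene was not measured. Uninduced coSE lay between 0.948, in intron 5 (chr4:150244075-150244240, 73 of 77 reads), and 0.976, in intron 4 (chr4:150242181-150244004, 83 of 85 reads). Their intervals, 0.874 to 0.980 and 0.918 to 0.994, overlap.

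Pkm, pyruvate kinase, which makes the last ATP of the pathway, lies on chr9:59656368-59679375 and was the deepest of the group, with 63 to 284 reads at its 10 introns in the uninduced pool. Its coSE was highest in intron 5 (chr9:59669100-59670466), with 222 of 223 reads spliced (0.996, interval 0.975 to 0.999). It was lowest in intron 8 (chr9:59672074-59675567), with 85 of 93 (0.914, interval 0.839 to 0.956). These intervals do not overlap, but the introns share reads and their difference was not tested. The intron that begins with GC, intron 7 (chr9:59671726-59671920), had 193 of 200 reads spliced (0.965, interval 0.930 to 0.983) and 44 of 44 in the induced pool. Its deposited 5′ score was 2.05, the lowest of the 62. GC-start introns of the table with at least 10 reads had a median coSE of 0.947 (41 introns, uninduced), beside 0.939 for GT starts.

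Ldha, the lactate dehydrogenase A chain, lies on chr7:46841475-46855627 with 7 introns, which had 118 to 146 reads each. All 124 reads were spliced at intron 7 (chr7:46854107-46854976, interval 0.970 to 1) and all 121 at intron 3 (chr7:46849091-46850177, interval 0.969 to 1). The lowest was intron 6 (chr7:46851995-46853982), with 132 of 138 reads spliced (0.957, interval 0.908 to 0.980). Its gene mean was 0.985 in both pools.

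After induction, coSE fell at introns of Tpi1, Aldoa, Eno1 and Pkm and no glycolytic intron passed the test as higher. Each of the 42 introns with at least 10 reads in both pools was tested with Fisher's exact test on its spliced and unspliced reads, with Benjamini-Hochberg adjustment over all 4403 introns of that depth. Of the 42, 6 passed an adjusted p of 0.05 as lower, beside a background of 1.25% of all introns tested, and 0 as higher, beside a background of 0.363%. At an unadjusted p of 0.05, 14 were lower and 0 higher, with backgrounds of 4.38% and 3.59%. Uninduced coSE was already near 1 at nearly all of the 42 introns, which left little room for a rise to be called. Glycolytic introns were deeper than the rest, with median reads of 94 and 19 in the uninduced and the induced pool against 21 and 17, and depth sets what the test can call. With no minimum of reads, which brought 42074 introns into the adjustment, 1 of the 6 was still called, Tpi1 intron 5. Where both pools had at least 20 reads, 3 of 21 were called lower, beside a background of 4.14%. Depth was still unlike there, with median reads of 136 and 30 in the uninduced and the induced pool against 43 and 31. Over the 42 introns 25 were lower (59.5%), 12 higher and 5 equal, beside 1534 lower (34.8%), 1879 higher and 990 equal of all 4403. Their median difference, induced minus uninduced, was -0.0237 against 0 over all 4403. Introns of 1 gene share reads, so the 6 calls, in 4 genes, are not 6 separate observations.

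**Figure D2:**
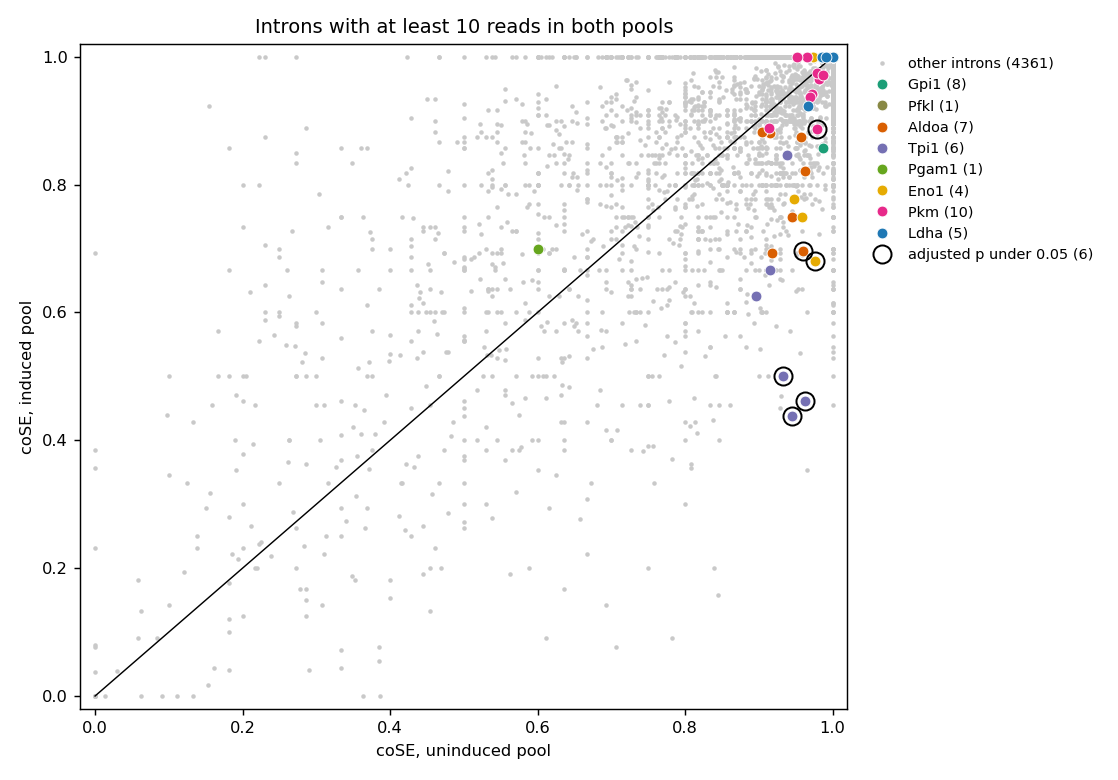
coSE in the induced pool (y axis) against the uninduced pool (x axis) for the 4403 introns with at least 10 reads in both; coloured points, glycolytic introns by gene; grey points, all others; line, equal values; rings, adjusted p under 0.05 (glycolytic introns only). The 6 ringed points lie below the line, 3 of them in Tpi1; no intron of Gapdh or Pgk1 had this depth.

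Tpi1 had the 3 largest differences of the group. At intron 5 (chr6:124811605-124811881) 52 of 55 reads were spliced in the uninduced pool (0.945, interval 0.851 to 0.981) and 7 of 16 in the induced pool (0.438, interval 0.231 to 0.668). The difference was -0.508 (Fisher's exact test, adjusted p 0.00370). At intron 6 (chr6:124811388-124811516), the last, 52 of 54 reads were spliced in the uninduced pool (0.963, interval 0.875 to 0.990) and 6 of 13 in the induced pool (0.462, interval 0.232 to 0.709). It fell by 0.501 (Fisher's exact test, adjusted p 0.00722). At intron 4 (chr6:124811968-124812403) the reads went from 55 of 59 (0.932, interval 0.838 to 0.973) to 7 of 14 (0.5, interval 0.268 to 0.732), a difference of -0.432 (Fisher's exact test, adjusted p 0.0343).

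The intervals of the pools do not overlap at these 3 introns, which are the last 3 of the gene. The upstream introns had smaller differences. Intron 3 had 52 of 58 and 10 of 16 reads spliced (Fisher's exact test, unadjusted p 0.0174, adjusted p 0.390). Intron 2 (chr6:124812706-124812789) had 54 of 59 and 10 of 15 (Fisher's exact test, unadjusted p 0.0244, adjusted p 0.448). Intron 1 (chr6:124812914-124814007) had 61 of 65 and 11 of 13. Along the gene the difference was thus -0.0923, -0.249, -0.272, -0.432, -0.508 and -0.501 from intron 1 to intron 6; whether introns differed from one another in their change was not tested. The mean over the 6 introns was 0.932 before and 0.589 after induction.

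In Aldoa all 7 tested introns had lower coSE in the induced pool, and 1 passed. At intron 6 (chr7:126796125-126796216), 92 nucleotides long, 119 of 124 reads were spliced in the uninduced pool (0.960, interval 0.909 to 0.983) and 16 of 23 in the induced pool (0.696, interval 0.491 to 0.844). It fell by 0.264 (Fisher's exact test, adjusted p 0.0337), and the intervals do not overlap. Intron 5 (chr7:126796301-126796594) had 122 of 133 and 18 of 26 reads spliced (Fisher's exact test, unadjusted p 0.00395, adjusted p 0.160). Intron 3 had 131 of 136 and 23 of 28 (Fisher's exact test, unadjusted p 0.0140, adjusted p 0.340). Intron 8 (chr7:126795515-126795612), the last, had 104 of 110 and 9 of 12 (Fisher's exact test, unadjusted p 0.0440, adjusted p 0.596). The gene mean was 0.933 before induction, over 8 introns with at least 10 reads, and 0.800 after induction, over 7.

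In Eno1, coSE was lower in the induced pool at introns 3 to 5, and 1 of them passed. Intron 4 had 83 of 85 reads spliced in the uninduced pool and 17 of 25 in the induced pool (0.68, interval 0.484 to 0.828). It fell by 0.296 (Fisher's exact test, adjusted p 0.00971), and the intervals do not overlap. Intron 3 (chr4:150241141-150242121) had 91 of 95 and 18 of 24 (Fisher's exact test, unadjusted p 0.00451, adjusted p 0.168). Intron 5 had 73 of 77 and 14 of 18 (Fisher's exact test, unadjusted p 0.0397, adjusted p 0.555). Intron 2 (chr4:150239567-150241044) had 108 of 111 and 26 of 26. Intron 4 is present in 2 of the 3 annotated transcripts that span it.

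In Pkm the change was small. Intron 1 (chr9:59656650-59665199), the 8550-nucleotide intron of the 5′ UTR, had 278 of 284 reads spliced in the uninduced pool (0.979, interval 0.955 to 0.990) and 87 of 98 in the induced pool (0.888, interval 0.810 to 0.936). It fell by 0.0911 (Fisher's exact test, adjusted p 0.0395). This intron is in 3 of its 5 spanning transcripts, and several others begin or hold an exon inside it. The other 9 introns of Pkm differed by -0.0317 to 0.0476, and none had an unadjusted p under 0.05.

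The tested introns of Gpi1 and Ldha had coSE of at least 0.857 in both pools. In Gpi1, 1 of 8 tested introns had an unadjusted p under 0.05: intron 5 (chr7:34220761-34220842), at 82 nucleotides the shortest of the group, with 75 of 76 and 24 of 28 reads spliced (Fisher's exact test, unadjusted p 0.0180, adjusted p 0.396). The other 7 had only spliced reads in the induced pool. In Ldha 4 of the 5 tested introns had only spliced reads in the induced pool, and the lowest value was 0.923 at intron 5 (chr7:46851059-46851876, 12 of 13 reads). None of the 5 had an unadjusted p under 0.05. Of the 9 Gpi1 introns under 10 reads in the induced pool, 7 had only spliced reads, and introns 16 and 17 had 2 of 3 and 2 of 4 spliced. Whether the change in Tpi1 differed from that in Ldha or Gpi1 was not tested.

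The number of nascent reads was itself lower at most of these genes after induction. Observations were divided by the number of introns and by the pool's total and are given in parts per 1000000 (ppm). Of the 10 glycolytic genes, with no minimum of reads, 7 were over 2-fold lower in the induced pool, Gapdh was lower by less than that, and Pfkl and Pgam1 were higher. With no minimum the backgrounds over all 8392 gene symbols were 21.1% over 2-fold lower and 18.2% over 2-fold higher. Among the 1252 genes of the table with at least 10 observations per intron in either pool, 34.2% were over 2-fold lower and 15.5% over 2-fold higher. That minimum can be met through the pool where a gene is high, as by Pgk1 and Gapdh, and Pfkl and Pgam1 did not meet it, so no count over the glycolytic genes that met it is given. Under a rule on the mean level over both pools (at least 28.7 ppm, chosen after the data were seen), 26.5% of 824 genes were over 2-fold lower and 17.2% over 2-fold higher. The 7 glycolytic genes kept by that rule were the 7 over 2-fold lower, and the 3 others were under that level. With 1 pool per group no test was made.

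Pgk1 went from 159 to 14.3 ppm per intron, 11.1-fold lower, and at its deepest intron alone the ratio was 0.157 (95% exact interval 0.0654 to 0.325, counting error only). Ldha went from 314 to 50.1, 6.26-fold lower. These 2 genes had the largest decreases of the group, and few of their reads were unspliced in the induced pool, 0 in Pgk1 and 2 in Ldha.

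Aldoa went from 276 to 75.2 (3.67-fold lower), Tpi1 from 140 to 51.9 (2.70-fold) and Eno1 from 221 to 83.2 (2.65-fold). Pkm went from 455 to 193 (2.36-fold) and Gpi1 from 106 to 47.4 (2.24-fold). Gapdh went from 30.7 to 20.0, 1.53-fold lower and under the 2-fold limit. Taken at the deepest intron alone, 5 of the 7 genes kept by the mean level were over 2-fold lower, beside a background of 25.7% of the 824 genes. Gpi1 was then at a ratio of 0.619 and Pkm at 0.514. Pfkl and Pgam1 were under 10 observations per intron, at 11.8 and 23.01 ppm and at 20.8 and 26.2 ppm, and neither was lower in the induced pool.

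**Figure D3:**
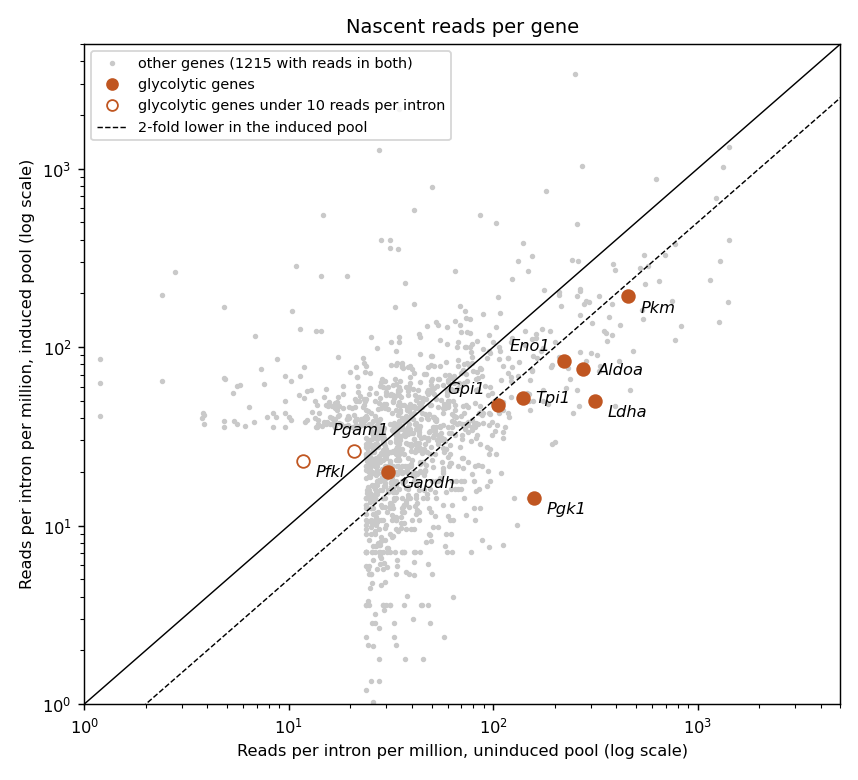
Nascent reads per gene, as observations per intron in ppm of the pool's total (per 1000000 on the axes), in the induced (y axis) against the uninduced pool (x axis), both on log scales; orange, glycolytic genes (open circles, under 10 observations per intron); grey, the 1215 other genes with reads in both pools; solid line, equal values; dashed line, 2-fold lower. The 1215 grey genes are those with at least 10 observations per intron in either pool and reads in both. The 7 glycolytic genes past the dashed line include Pgk1 and Ldha, the farthest from equality. Genes with 0 reads in a pool are not drawn.

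The counts behind the lower coSE of Tpi1, Eno1 and Aldoa can be set out as spliced and unspliced observations. They are the same counts as above, so that spliced reads are lower by more than unspliced reads in these genes is no further result. Pkm had ratios of induced to uninduced of 0.415 for spliced and 0.778 for unspliced observations (46 and 24 unspliced). Gpi1 had 0.441 and 0.745, on 14 and 7 unspliced observations. In Tpi1 spliced observations went from 782.9 to 182.6 ppm, 4.29-fold lower, and unspliced observations from 57.6 to 129 ppm, 2.24 times the uninduced value. In Eno1 spliced observations were 3.18-fold lower and unspliced observations went from 31.2 to 64.4 ppm, 2.06 times the uninduced value. In Aldoa spliced observations were 4.27-fold lower and unspliced observations went from 142 to 118 ppm.

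Tpi1 and Eno1 were the 2 genes of the 10 with more unspliced observations in ppm after induction. The counts behind these are small, 24 and 36 unspliced observations in Tpi1 and 13 and 18 in Eno1, and 1 read can count at several introns. In Ldha both kinds were lower, 6.29-fold for spliced observations and from 33.6 to 7.16 ppm for unspliced ones. Over the 10 genes spliced observations went from 13942 to 4585 ppm, a ratio of 0.329, and unspliced observations from 591 to 551 ppm, a ratio of 0.933.

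**Figure D4:**
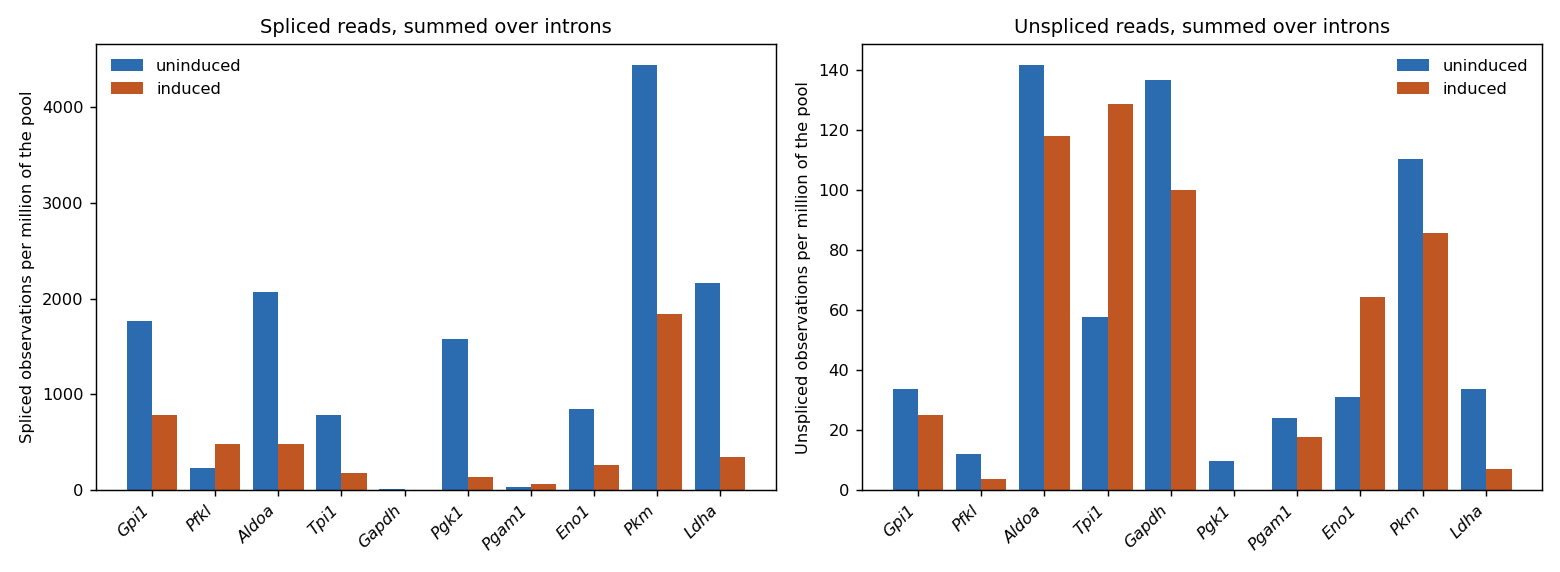
Spliced and unspliced observations, in ppm of the pool's total (per 1000000 on the axes), of each glycolytic gene, summed over its introns, in the uninduced (blue) and the induced pool (orange), as bars from 0 on linear axes (left panel, spliced; right panel, unspliced). Spliced observations are lower in the induced pool in 8 of 10 genes, and unspliced observations are higher in Tpi1 and Eno1. Values of 0 (Gapdh spliced and Pgk1 unspliced, induced) show no bar.

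Splicing intermediates, understood here as RNAs after the first step of splicing, with the upstream exon released and the exons still to be joined, were rare at the glycolytic introns of uninduced cells. They are given as NIC, intermediates over intermediates plus spliced reads. Over the 62 introns there were 80 intermediates beside 5198 spliced reads (1.52%), against 2.71% over all introns of the table. In the induced pool there were 32 beside 733 spliced reads in 28 introns (4.18%), against 4.35% over all. Over the same 28 introns the uninduced share was 1.58%, and over the 2039 introns of the table in both pools the shares were 2.22% and 3.83%.

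Of the 28 introns 0 passed an adjusted p of 0.05 in Fisher's exact test, beside a background of 0.0981%. At an unadjusted p of 0.05 there were 4, all higher in the induced pool, beside a background of 1.67% in either direction and 1.23% as higher. Uninduced NIC had a median of 0.00466 over the 28 introns, which left little room for a decrease to be called. The largest difference was at Eno1 intron 5, with 3 of 72 reads in the uninduced pool and 5 of 15 in the induced pool as intermediates (NIC 0.0417 and 0.333, Fisher's exact test, adjusted p 0.877). Pkm intron 2 (chr9:59665367-59665862) had 0 of 255 and 4 of 83 (Fisher's exact test, adjusted p 0.877). Aldoa intron 3 had 0 of 129 and 2 of 15, and Aldoa intron 6 had 1 of 118 and 2 of 11, both at an adjusted p of 1 in Fisher's exact test. For Tpi1 the induced pool holds a single line, intron 5 with 1 read, so intermediates could not be compared where its coSE fell most.

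**Figure D5:**
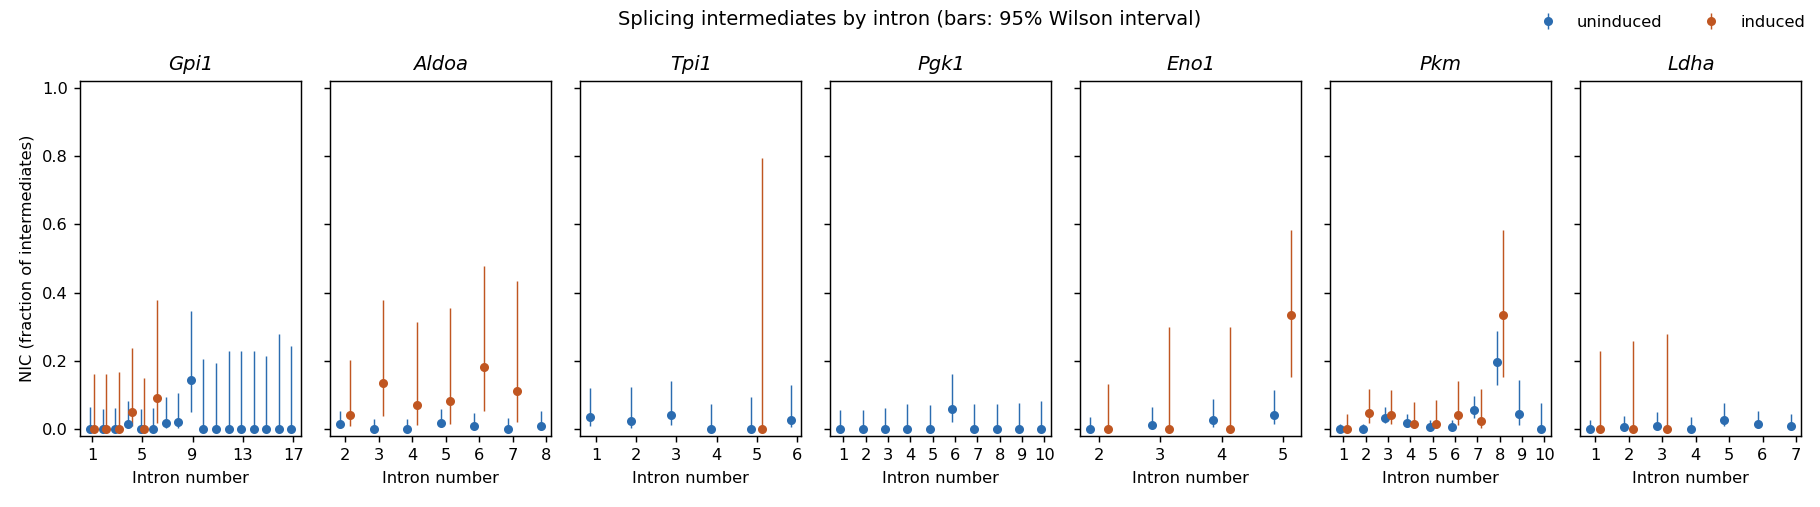
NIC, the fraction of intermediates, at each glycolytic intron of the intermediate table in the uninduced (blue) and the induced pool (orange), by gene; x axis, intron number; bars, 95% Wilson interval. Pkm intron 8 is the highest in the uninduced pool at 0.196; Pgam1, with 1 intron of 6 reads and no intermediate, is not drawn, and the wide bar of Tpi1 intron 5 belongs to 1 read.

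Intermediates gathered at intron 8 of Pkm. It had 18 intermediates among 92 reads in the uninduced pool (NIC 0.196, interval 0.127 to 0.288) and 5 among 15 in the induced pool (0.333, interval 0.152 to 0.583). Intron 7 had 11 of 200 (0.0550, interval 0.0310 to 0.0958) and 1 of 44, and intron 3 (chr9:59665955-59668548) had 8 of 242 (0.0331, interval 0.0168 to 0.0639) and 3 of 73. Together these 3 introns had most of the 45 intermediates of Pkm. Of all 5568 introns in the uninduced pool 9 had as many intermediates as intron 8 or more and 290 had as high a NIC or higher, that intron counted in both. Outside Pkm the highest uninduced value was at Gpi1 intron 9 (chr7:34208311-34215955), at 3 of 21 reads (0.143, interval 0.0498 to 0.346).

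Intron 8 is where the isoforms of pyruvate kinase part. Pkm has a pair of mutually exclusive exons, one used in the M1 form of muscle and brain and the other in the M2 form of growing cells. The transcript used in the tables, Pkm-201, has the downstream exon, of 167 nucleotides at chr9:59675568-59675734. The upstream exon of Pkm-202, also of 167 nucleotides, lies inside intron 8 at chr9:59675029-59675195. Introns 8 and 9 are each in 1 of the 2 annotated transcripts that span them, and how reads with the other exon were counted at them is not given in the sources used here.

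Reads per intron dropped at the same place, from 200 at intron 7 to 93 at intron 8 (2.15-fold) in the uninduced pool and from 44 to 18 (2.44-fold) in the induced pool. They stayed low beyond it, at 65 and 16 reads at intron 9 and 63 and 11 at intron 10. Intron 10 is in 2 of the 2 annotated transcripts that span it. The source of the drop was not tested. Gpi1 had a step of like size, from 58 reads at intron 8 to 23 at intron 9 (2.52-fold). In the uninduced pool the largest drop from 1 intron to the next was 1.08-fold to 1.21-fold in Aldoa, Tpi1, Pgk1, Eno1 and Ldha. Gm49759 overlaps Pkm introns 8 and 9 on the same strand, and its part in these reads was not tested.

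Across the glycolytic introns, longer introns had higher coSE. Spearman's rho between length and coSE was 0.461 in the uninduced pool (68 introns), 0.382 without Gapdh (64 introns) and 0.468 in the induced pool (49 introns), beside 0.371 and 0.383 over all introns at that depth. At a minimum of 20 reads the induced value was 0.307 (21 introns), beside 0.419 over all introns. These values describe introns that share genes and reads, and they carry no test. The deposited 5′ splice site score had a rho of 0.0858 and the 3′ score one of -0.0106 in the uninduced pool (62 introns), and the GC content one of -0.291. In the induced pool (28 introns) the values were -0.0912, -0.394 and -0.264. For the 3′ score all introns of the table had 0.112 before and 0.0767 after induction, and at a minimum of 20 reads the glycolytic value in the induced pool was -0.516 (21 introns). Last introns had a mean coSE of 0.823 in the uninduced pool (9 introns, Gapdh among them) against 0.925 for the other 59, beside 0.827 and 0.857 over all genes. In the induced pool they had 0.738 (5 introns) against 0.896 (44 introns), beside 0.805 and 0.868 over all genes. At a minimum of 20 reads, which leaves out Gapdh and Pgam1, the uninduced means were 0.954 (7 introns) and 0.971 (51 introns).

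Other genes of glucose metabolism were followed with a list of 43, covering hexokinases, further isoforms, transporters, pyruvate dehydrogenase and its kinases and the pentose phosphate branch. Of these, 32 were in the table, and 18 introns of Pfkp, Pdha1 and Hk1 had enough reads in both pools. None of the 18 passed the adjusted or the unadjusted threshold, beside 1.25% and 4.38% of all introns as lower and 0.363% and 3.59% as higher, and their median difference in coSE was 0. In nascent reads, 2 of the 4 listed genes kept by the mean level over both pools (Hk1, Pdha1, Pfkp and Slc2a3) were over 2-fold lower and 0 over 2-fold higher, beside the 26.5% and 17.2% above. The 3 listed genes with most reads at a single intron were Slc2a3, Pdha1 and Pfkp. Slc2a3, a glucose transporter, was 5.56-fold lower per intron, Pdha1, a subunit of pyruvate dehydrogenase, 2.28-fold lower, and Pfkp, the platelet-type phosphofructokinase, 1.19-fold lower. Hk1, a hexokinase and the fourth gene kept by the mean level, was higher in the induced pool, with a log2 ratio of 0.36.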

How the data were processed

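Nascent RNA of uninduced and induced MEL cells was analysed from 2 tables that the authors deposited, each with 1 line per intron and condition. Values are raw counts of spliced and unspliced reads and of intermediates, per the file headers. NIC is a deposited fraction, the GC content a deposited percent, and the splice sites carry a deposited score whose program is not given. Per the submitters' processing notes, cutadapt, minimap2, SAMtools, bedtools and Bowtie and the builds mm10 and dm3 were used, with no role given. The deposited positions matched GENCODE release 21 introns (GRCm38) in 99.96% of cases after conversion to 1-based coordinates. Computed here, with Python 3.11.15, pandas 2.3.3 and scipy 1.17.1, were coSE, 95% Wilson intervals, two-sided Fisher's exact tests per intron with Benjamini-Hochberg adjustment over all introns tested (at least 10 reads in both pools, threshold 0.05), and reads per intron in parts per 1000000 of the pool. A share of 0 was bounded by 3 counts. Libraries were PCR-amplified, so intervals and tests cover counting error only. The test was checked on simulated counts drawn independently for each intron, so shared reads, replicate spread and PCR duplicates were not covered. Introns were named where a p was under 0.05, where coSE was a gene's lowest or highest, or where intermediates were most numerous. The members and lists were chosen with earlier results of these data known. Alternatives were another minimum of reads, a chi-square test and introns shared by every spanning transcript. The globin-insert and PRO-seq samples were not used here.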

Additional observations from a re-analysis of the deposited data

How the results depend on the processing

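No paired analysis was possible because the tables hold 1 pooled line per intron and condition, and leaving out single replicates was not possible for the same reason. The count of glycolytic introns with lower coSE, 6 in the report, was 1 with no minimum of reads (Tpi1 intron 5, among 42074 introns tested), 3 with a minimum of 20 reads (Aldoa 6, Eno1 4 and Pkm 1) and 3 over introns present in every spanning transcript (Aldoa 6, Tpi1 4 and Tpi1 6). In the last 2 settings these were all of the 6 that could still be tested. A chi-square test called the same 6, and no setting called a glycolytic intron higher. Uninduced coSE near 1 left little room for such a call. With no minimum, adjusted p in Fisher's exact test was 0.0654 for Tpi1 intron 6, 0.0884 for Eno1 intron 4, 0.288 for Aldoa intron 6, 0.293 for Tpi1 intron 4 and 0.341 for Pkm intron 1. Over all introns the count with lower coSE, 55, was 30 with no minimum and 27 over introns in every spanning transcript. The count with higher coSE, 16, was 6 with no minimum, 4 over introns in every spanning transcript and 10 with chi-square. The NIC count over all introns, 2, was 1 with chi-square and 0 when set against all reads. Some values with no test changed sign or order: the log2 change of nascent reads of Pgam1 was 0.33 in the report's setting and -0.0092 at its deepest intron, the rho of coSE with intron number in the uninduced pool was 0.0484 and, at 20 reads, -0.0156, and the gene mean of Gpi1, 0.974 before and 0.982 after induction, was 0.974 and 0.943 with no minimum. The alternatives leave the coSE difference of an intron as it is and change only its test. Depth limits Gapdh, Pgk1, Pfkl and Pgam1, of whose introns at most 1 per gene could be tested. The count of glycolytic genes over 2-fold lower in nascent reads was 7 with genes kept by the mean level and with no minimum, both chosen after the data were seen.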
